A study of Mus musculus with 9 samples.

Results

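Circular RNAs (circRNAs) whose host genes belong to protein kinase families were examined in C2C12 cells. In a circRNA the splicing machinery has joined an exon's end backward to an earlier exon's start, and reads that cross this back-splice are what was counted. Hosts were taken when their symbol started with Mapk, Map2k, Map3k, Map4k, Prk, Camk, Rps6k or Stk, or with Akt, Mark or Nek followed by a digit. The rule used names alone and no measured value. It found 97 of 6943 host genes, with 593 of 37751 circRNAs and 42379 reads over the 9 libraries. Of these hosts, 83 encode protein kinases. The other 14 encode regulatory subunits, scaffolds or unrelated proteins that share a prefix, such as the glucosidase subunit Prkcsh, and held 1.75% of the reads.

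C2C12 is a mouse myoblast line from skeletal muscle. Day 0 was proliferating cells, not yet confluent, in medium with 10% fetal bovine serum. Days 3 and 6 were counted from the change to 2% horse serum, in which the cells differentiate, with 3 libraries per day. Total RNA was used after a clean-up meant to enrich circRNAs, and no genotype or other treatment is labelled. Libraries held 208787 to 443955 back-splice reads, of which 3118 to 6684 came from kinase-family hosts. A single library listed 112 to 183 of the 593 circRNAs and 48 to 68 of the 97 hosts. The labelled differentiation was visible in the muscle hosts: the mean level of titin (Ttn) in CPM (counts per 1000000 of the normalised library total) was 36.9 at day 0, 7463 at day 3 and 9119 at day 6. The dividing-cell host Spag5 averaged 3265, 708 and 208 CPM on the same days. Of the hosts that mark other cell types, Pparg (94.0 to 418 CPM) and Runx2 (233 to 594 CPM) were listed in all 9 libraries, while Adipoq, Plin1, Sp7, Bglap, Pecam1, Cdh5 and Ptprc were not among the hosts.

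Protein kinases transfer phosphate to other proteins, and many work in relays. In the mitogen-activated protein kinase (MAPK) cascades, kinases named Map4k act on Map3k, these on Map2k, and these on Mapk. The Mapk kinases phosphorylate transcription factors and further kinases, among them some, not all, of those with the ribosomal S6 kinase prefix (Rps6k). Akt kinases act downstream of phosphoinositide 3-kinase, the Prk group holds the protein kinase A, C and D families and AMP-activated kinase, and Camk kinases respond to calcium. In myoblasts, growth factors in rich serum keep the ERK branch of the relay active in proliferation, and p38 kinase (Mapk14) and Akt signalling are needed for differentiation.

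The most abundant kinase circles were built from a few early coding exons, and their back-splice junctions are shown because the junction is the only part that the reads tell apart from the linear mRNA. Each run gives the last 20 bases of the circle's last exon in lower case, then the first 20 bases of its first exon in capitals, 5′ to 3′. Exon sequences were read from the GENCODE M21 transcripts of GRCm38, and coordinates are as deposited on that build.
Rps6kb1 exons 2 to 4: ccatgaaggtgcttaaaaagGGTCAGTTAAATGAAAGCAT
Rps6kc1 exons 3 to 6: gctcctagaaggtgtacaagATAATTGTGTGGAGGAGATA
Rps6kc1 exons 3 to 5: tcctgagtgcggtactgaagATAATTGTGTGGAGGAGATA
Map2k1 exons 2 to 5: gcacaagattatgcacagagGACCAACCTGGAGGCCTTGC
Map2k2 exons 2 to 4: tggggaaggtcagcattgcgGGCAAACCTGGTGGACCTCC
The Rps6kb1 circle (chr11:86532772-86535460, minus strand) is 240 nt long after splicing and covers codons 48 to 127 of 525. Its host encodes the p70 S6 kinase, which phosphorylates ribosomal protein S6. With 3527 reads it was the most abundant circle of the kinase hosts and held rank 72 among all circRNAs. The 2 Rps6kc1 circles start at the same exon (chr1:190871592-190899571, minus strand, and chr1:190885334-190899571, minus strand), so the capitals of their junctions are identical and the lower-case parts are not. They measure 691 nt and 331 nt, and the longer one covers codons 48 to 278 of 1056. The circle of Map2k1, which encodes the ERK activator MEK1, covers codons 27 to 190 of 393 (chr9:64204431-64214609, minus strand, 488 nt). The paralogue Map2k2 (MEK2), named here after its values were seen, had 1 leading circle that starts at the same exon number (chr10:81108748-81118229, plus strand, 436 nt), with 624 reads against 2754 for the Map2k1 circle. After the junction, at the start of exon 2 in both, 14 of 20 bases were identical between the MEK1 and MEK2 circles. Before it the circles end at different exon numbers (5 and 4), and 7 of 20 bases were identical.

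Reads of kinase hosts were concentrated in a few genes. The leading host held 17.3% of them, the top 4 held 44.4% and the top 10 held 69.0%. Rps6kc1 led them, at rank 42 among all hosts. By prefix, the 6 Rps6k hosts gave the most reads (11711, 27.6%). Among the other prefixes, not all of which are given, were the 6 Map2k hosts (4540, 10.7%), the 13 Stk hosts (4417, 10.4%) and the 5 Map4k hosts (4074, 9.61%). The 24 Prk hosts were the most numerous but held 3198 reads (7.55%), and the 12 Map3k hosts held 2835 (6.69%). There were 1541 reads in 3 Mark hosts, 1300 in 8 Nek hosts and 841 in 5 Camk hosts. There were 26 hosts listed in all 9 libraries, with 86.8% of the reads, and 25 hosts had a single circRNA.

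Summed over all 97 hosts, kinase circles took a smaller part of the back-splice reads in differentiating cells. At day 0 the libraries had 18029, 18051 and 16935 kinase-host reads per 1000000 back-splice reads (RPM), at day 3 they had 14924, 15598 and 14915, and at day 6 they had 14934, 14527 and 15056. All 6 libraries of days 3 and 6 lay below all 3 of day 0, and days 3 and 6 overlapped. The mean was 15146 ± 392 at day 3 against 17672 ± 638 at day 0 (SD, n = 3 each; log2 ratio -0.22, exact two-sided permutation p = 0.1, the smallest that 3 against 3 can give). At day 6 it was 14839 ± 277, a log2 ratio of -0.25 to day 0 (exact permutation p = 0.1) and of -0.03 to day 3 (p = 0.6). Against TMM-adjusted totals, chosen after seeing the data, the log2 ratios to day 0 were -0.09 at day 3 and -0.13 at day 6, still without overlap. The RPM value is a share, so it also falls when reads of other hosts rise, with kinase circles unchanged. The table holds no linear reads. Fewer kinase circles per cell, fewer cells that make them and more circles from other hosts cannot be told apart.

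The difference was spread over several large hosts. Between day 3 and day 0 the differences in RPM were -414 for Stk35, -396 for Prkca and -270 for Map2k1, against 317 for Mark3. Between day 6 and day 0 they were -734.5 for Rps6kc1, -482 for Stk35, -419 for Map2k1 and -361 for Map4k4, against 163 for Mark3. These are differences in level with no test of each. Of the prefixes, Stk hosts summed to 2105 ± 287 RPM at day 0, 1517 ± 267 at day 3 and 1476 ± 375 at day 6, as mean ± SD of 3 libraries. The 3 Mark hosts summed to 392 ± 36.3, 765 ± 198 and 543 ± 162 on the same days.

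**Figure D1:**
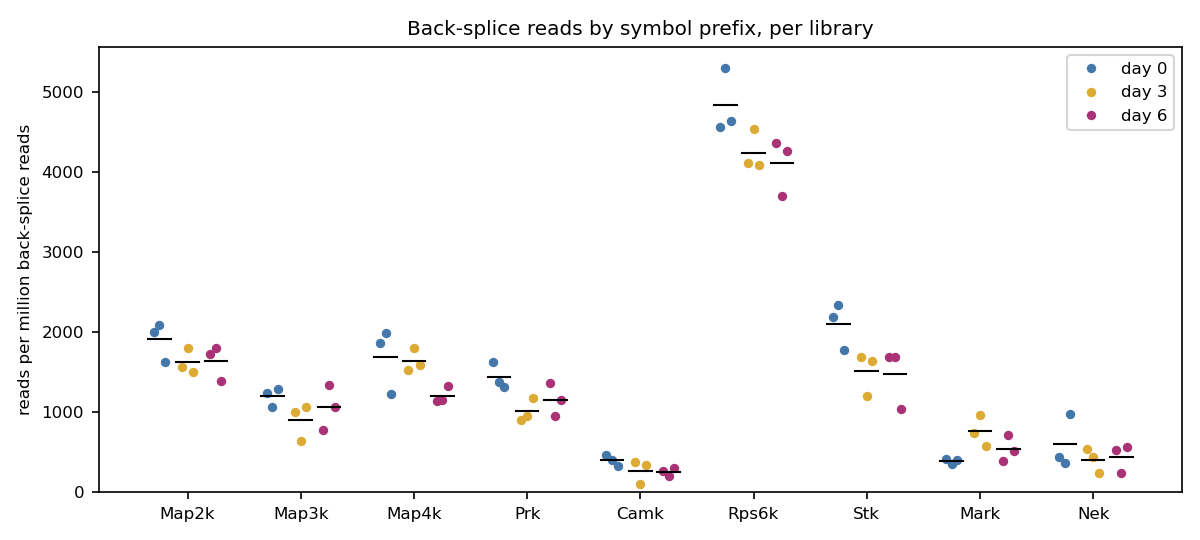
Kinase-family host reads (RPM), by symbol prefix and day, for the prefixes drawn. Each point is a library (3 per day); the Rps6k group is the highest of those drawn on all 3 days, and the Mark group has its highest library at day 3.

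The question asked of each host was whether its circles differed between days beyond the spread of libraries. With counts summed per host, 68 of the 97 passed the filter on low counts (41944 of the 42379 kinase reads). The 29 that did not pass held 435 reads. Of all 4115 hosts tested, 3.96% passed an adjusted p of 0.05 at day 3 against day 0 in edgeR's quasi-likelihood test. Of the 68 kinase hosts 1 passed, Prkca, which was lower (1.47%, against 0.923% of all hosts lower). At day 6 against day 0 none of the 68 passed, where 5.66% of all hosts did, and at day 6 against day 3 none passed, where 0.0729% did. At an unadjusted p under 0.05, 5 kinase hosts were counted at day 3 against day 0 (7.35%, against 13.5% of all hosts), 7 at day 6 against day 0 (10.3%, against 17.6%) and 7 at day 6 against day 3 (10.3%, against 5.98%). DESeq2 called 3, 2 and 0 kinase hosts in these comparisons, where it called 6.96%, 11% and 0.462% of all hosts. The comparisons share the day 0 or day 3 libraries.

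Among kinase hosts with small standard errors most folds were within 1 log2 unit, and the same count was not made for all hosts. The 12 kinase hosts with a standard error under 0.5 had log2 fold changes of -0.79 to 1.16 at day 3 against day 0, and 11 of them were within 1 log2 unit. At day 6 against day 0, all 12 such hosts were within 1 log2 unit. The median over the 68 hosts was -0.18 at day 3 and -0.28 at day 6, against -0.02 and -0.13 over all 4115 hosts. With hosts at 0 on 1 day set to their bound, these were -0.17 and -0.28, against -0.02 and -0.12. Over hosts with reads on both days compared, the medians were -0.17 at day 3 and -0.17 at day 6, against -0.04 and -0.1. Positive values were seen in 26 of 68 at day 3 (38.2%, against 48.8% of all hosts). At day 6 they were seen in 28 of 68 (41.2%, against 46.3%). Library values did not overlap between day 3 and day 0 for 10 of the 68 hosts (14.7%, against 20.9% of all hosts), between day 6 and day 0 for 12 (17.6%, against 23.8%) and between day 6 and day 3 for 9 (13.2%, against 11.3%).

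**Figure D2:**
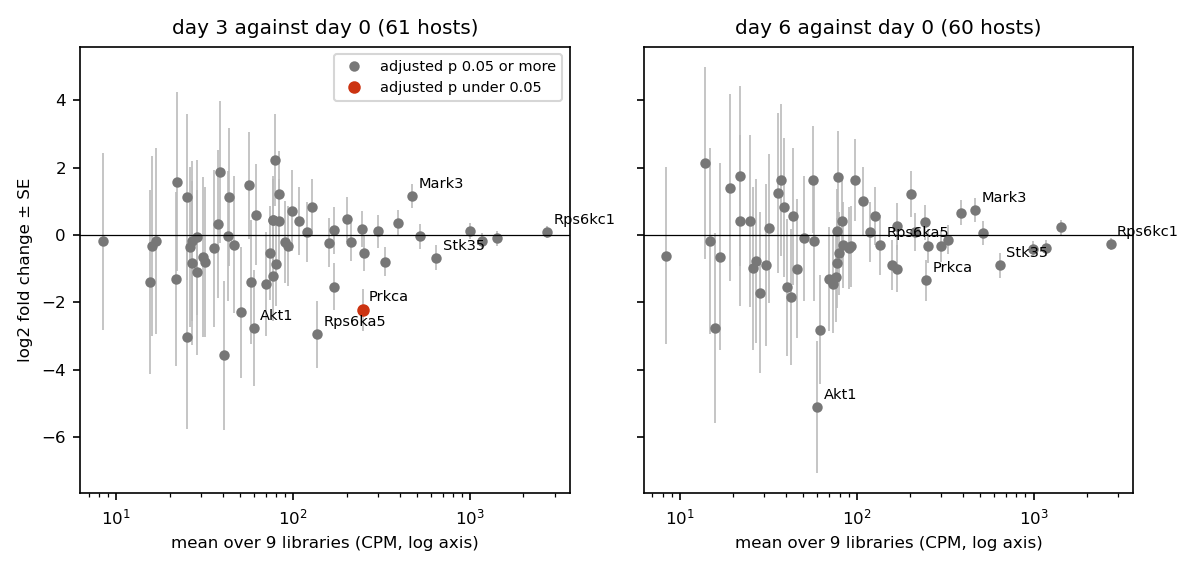
Log2 fold change of tested kinase hosts against their mean level (CPM, log axis), for day 3 against day 0 and day 6 against day 0. The panels hold 61 and 60 of the hosts with reads on both days, and bars are standard errors; the spread narrows toward high levels, and Prkca at day 3 is the host that passed.

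Prkca circles fell by day 3. The gene encodes the classical protein kinase C alpha, which is activated by calcium and diacylglycerol. It had 402, 559 and 421 CPM in day 0 libraries, 148, 20.9 and 126 CPM in day 3 libraries, and 308, 81.1 and 154 CPM in day 6 libraries. All 3 libraries of day 3 lay below the 3 of day 0, and so did the 3 of day 6, while days 3 and 6 overlapped. The mean was 98.2 ± 68.0 CPM at day 3 against 461 ± 85.4 CPM at day 0 (SD, n = 3 each), a log2 fold change of -2.22 ± 0.61 (± SE, with an adjusted p from edgeR of 0.0305). At day 6 it was 181 ± 116 CPM, with a log2 fold change of -1.35 ± 0.60 to day 0 (adjusted p from edgeR = 0.237) and 0.87 ± 0.60 to day 3 (adjusted p from edgeR = 0.879), neither past the threshold. The day 3 call was lost without day 0 replicate 2 (adjusted p = 0.109), day 0 replicate 3 (0.0553) or day 3 replicate 2 (0.137), and when days 3 and 0 were fitted alone (0.0684), with log2 fold changes of -1.74 to -2.27.

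The reads of Prkca were spread over 6 tested circRNAs from exons 4 to 14, none of which passed on its own. The junctions of 4 are shown because the circles lie in different parts of the gene.
Prkca exons 4 to 5: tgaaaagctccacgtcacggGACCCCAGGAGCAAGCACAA
Prkca exons 6 to 8: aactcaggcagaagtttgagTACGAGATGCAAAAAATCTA
Prkca exons 9 to 13: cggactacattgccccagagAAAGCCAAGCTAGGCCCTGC
Prkca exons 9 to 14: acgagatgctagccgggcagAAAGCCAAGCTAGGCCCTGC
The circle of exons 4 to 5 (chr11:108053975-108057873, minus strand, 241 nt, codons 97 to 177 of 672) had most reads, 292, with 122, 359 and 95.5 CPM in day 0 libraries, 89.9, 0 and 61.6 CPM in day 3 libraries, and 139, 0 and 133 CPM in day 6 libraries. That of exons 6 to 8 (113 reads) had 78.1, 77.1 and 59.7 CPM in day 0 libraries, 0, 0 and 14.7 CPM in day 3 libraries, and 85.3, 77.1 and 23.7 CPM in day 6 libraries. It was low at day 3 and at or above the day 0 mean in 2 of the 3 day 6 libraries. The circle of exons 9 to 13 (chr11:107978234-107986385, minus strand, 606 nt, codons 307 to 508 of 672) had 68.7, 92.5 and 71.6 CPM in day 0 libraries, 35.3, 21.0 and 0 CPM in day 3 libraries, and 0, 0 and 0 CPM in day 6 libraries (adjusted p from edgeR = 0.326 for day 6 against day 0). That of exons 9 to 14, which starts at the same exon, had 57 reads in 3 libraries and was also listed at 0 throughout day 6. The tested circles of exons 9 onward were listed at 0 throughout day 6. There the circles of exons 4 to 5 and 6 to 8 had reads in 2 and 3 libraries. The difference between circles was not tested, and with counts this low a 0 is common. Where 10 to 20 reads were expected from a circle's share in the other 8 libraries, 90 of 257 values of kinase circRNAs (35.0%) were 0. The other 2 tested circles, of exons 4 to 14 and 4 to 8, had 28 and 17 reads.

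**Figure D3:**
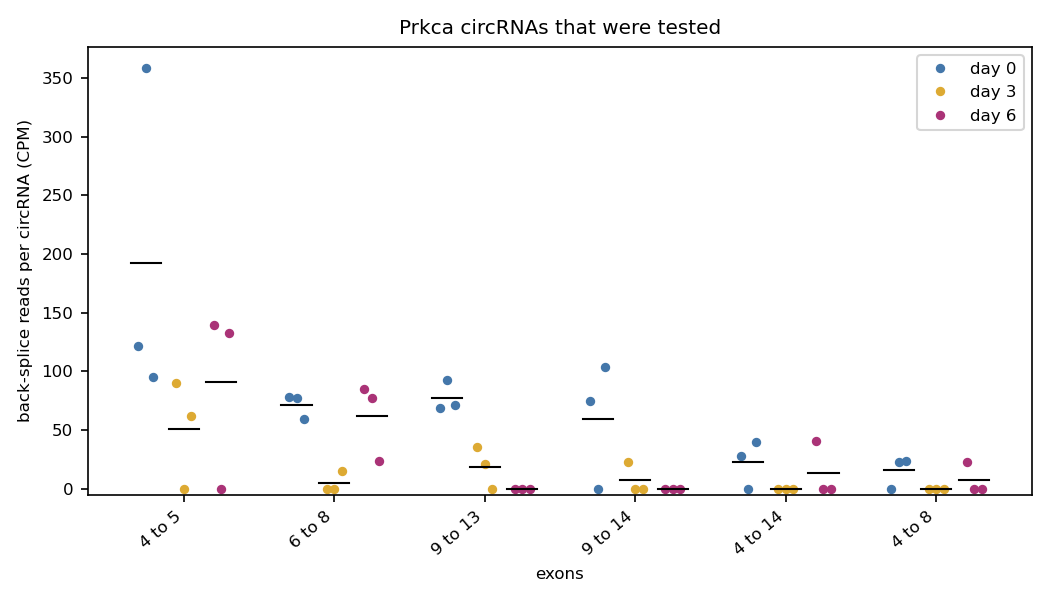
CPM of the tested circRNAs of Prkca in each of the 9 libraries by day, with the mean of each day as a bar. The circles of exons 4 to 5, 9 to 13 and 9 to 14 have their highest values at day 0, and those of exons 9 to 13 and 9 to 14 are at 0 in all day 6 libraries.

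Along the MAPK relay no host passed. Map4k4, a kinase upstream of JNK, had 1090.0, 1222 and 865 CPM in day 0 libraries, 1064, 1230.3 and 1139 CPM in day 3 libraries, and 726, 777 and 873 CPM in day 6 libraries. Day 6 lay lowest, and 2 of its libraries were below all libraries of the other days. Its log2 fold change was -0.42 ± 0.24 (adjusted p = 0.377, edgeR) at day 6 against day 0 and -0.53 ± 0.24 (adjusted p = 0.737, edgeR) at day 6 against day 3. Map3k3, which encodes MEKK3, averaged 517 ± 199, 502 ± 42.2 and 538 ± 235 CPM on days 0, 3 and 6. Its log2 fold changes to day 0, -0.04 ± 0.36 at day 3 and 0.06 ± 0.36 at day 6, were both smaller than their standard errors.

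Map2k1 had 1288, 1324 and 1365 CPM in day 0 libraries, 1180.3, 1241 and 1107 CPM in day 3 libraries, and 904, 1285 and 861 CPM in day 6 libraries. At both later days every library lay below the lowest of day 0, with log2 fold changes of -0.17 ± 0.23 (adjusted p = 0.973, edgeR) at day 3 and -0.38 ± 0.23 (adjusted p = 0.398, edgeR) at day 6. Low counts limited the p38 host Mapk14, whose 174 reads gave 109, 39.1 and 60.2 CPM in day 0 libraries, 155, 34.8 and 128 CPM in day 3 libraries, and 14.4, 0 and 14.0 CPM in day 6 libraries. Day 6 was below day 3 in every library, with a log2 fold change of -3.41 ± 1.66 (adjusted p = 0.737, edgeR). Map3k8 encodes the ERK pathway activator Tpl2, and Mapk8ip3 encodes the JNK scaffold JIP3 and is no kinase. Both were listed at 0 throughout day 6. At day 3 the libraries had 35.5, 17.4 and 102 CPM of Map3k8 and 25.8, 55.6 and 32.1 CPM of Mapk8ip3. Against the floor of 3 reads per library they were at least 4.53-fold and at least 3.31-fold lower at day 6 than at day 3 (adjusted p from edgeR = 0.737 for both). Without day 3 replicate 3 the bound for Map3k8 was 2.31-fold.

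The Rps6k hosts held the most abundant circles, and none of these hosts passed. Rps6kc1, a kinase with a lipid-binding PX domain, had 2862, 2937 and 2735 CPM in day 0 libraries, 2941, 3222 and 2849.5 CPM in day 3 libraries, and 2576, 1956 and 2521 CPM in day 6 libraries. At day 6 all 3 libraries were below the other 6. The mean was 2351 ± 343 CPM at day 6 against 2845 ± 102 CPM at day 0, a log2 fold change of -0.28 ± 0.18 (adjusted p = 0.450, edgeR), and 0.08 ± 0.18 at day 3. Rps6kb1 had 1075, 1363 and 1696 CPM in day 0 libraries, 1206, 1317 and 1346 CPM in day 3 libraries, and 1442, 1623 and 1767 CPM in day 6 libraries. All 3 libraries of day 6 were above those of day 3, and day 0 overlapped with both. The log2 fold change at day 6 against day 3 was 0.32 ± 0.22 (adjusted p = 0.858, edgeR). Its main circle, exons 2 to 4, had a log2 fold change of 0.20 ± 0.24 (adjusted p = 0.934, edgeR) at day 6 against day 0. Rps6ka5 encodes the histone H3 kinase MSK1 and had 233, 293 and 105 CPM in day 0 libraries, 0, 73.0 and 8.76 CPM in day 3 libraries, and 173, 218 and 122 CPM in day 6 libraries. Day 3 lay below both other days without overlap, in a host of 9 circRNAs of which 3 passed the filter. The log2 fold change was -2.95 ± 0.98 (adjusted p = 0.102, edgeR) at day 3 against day 0 and 2.65 ± 0.98 (adjusted p = 0.737, edgeR) at day 6 against day 3. The first passed in DESeq2 (adjusted p = 0.0088) and without day 3 replicate 2 (adjusted p from edgeR = 0.00142).

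Akt kinases carry the survival and growth signal from phosphoinositide 3-kinase. Akt1 had 201, 184 and 75.2 CPM in day 0 libraries, 0, 34.8 and 32.1 CPM in day 3 libraries, and 0, 12.8 and 0 CPM in day 6 libraries. All libraries of days 3 and 6 lay below those of day 0, and at day 6 only 1 library was listed above 0. Its log2 fold change was -5.10 ± 1.96 (adjusted p = 0.146, edgeR) at day 6 against day 0, which passed in DESeq2 (adjusted p = 0.00715) and without day 6 replicate 2 (adjusted p = 0.0393, edgeR).

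Mark3 was the host nearest to the threshold among those higher at day 3. Mark kinases phosphorylate microtubule-associated proteins and act in cell polarity. Mark3 had 292, 230.4 and 335 CPM in day 0 libraries, 577, 799 and 543 CPM in day 3 libraries, and 356, 722 and 360.5 CPM in day 6 libraries. Every library of days 3 and 6 was above the highest of day 0. The mean was 639.9 ± 139 CPM at day 3 against 286 ± 52.5 CPM at day 0, a log2 fold change of 1.16 ± 0.37 (adjusted p = 0.0734, edgeR). At day 6 the log2 fold change to day 0 was 0.74 ± 0.37 (adjusted p = 0.284, edgeR). The day 3 difference passed in DESeq2 (adjusted p = 0.0257), with upper-quartile factors (0.0490) and without day 6 replicate 1 (0.0460). Its 3 tested circles all start at exon 2, and the largest, exons 2 to 5, carried 989 reads (chr12:111592577-111618383, plus strand, 361 nt).
Mark3 exons 2 to 5: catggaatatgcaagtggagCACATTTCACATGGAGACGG
This circle had 162, 228 and 334 CPM in day 0 libraries, 414, 687 and 372 CPM in day 3 libraries, and 332, 491 and 348 CPM in day 6 libraries. All 3 of its day 3 libraries were above those of day 0 (adjusted p from edgeR = 0.422).

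Of the Stk hosts, Stk35 gave 1 circRNA, its exon 3 alone (chr2:129810488-129811237, 750 nt). The host encodes a kinase found in the nucleus. It had 783, 1055 and 839 CPM in day 0 libraries, 709, 306 and 651 CPM in day 3 libraries, and 490.2, 786 and 169 CPM in day 6 libraries. Day 3 lay below day 0 in all libraries, and at day 6 it was so in 2 of 3 libraries, with the other just above the lowest day 0 value. The log2 fold change was -0.68 ± 0.37 (adjusted p = 0.416, edgeR) at day 3 and -0.90 ± 0.38 (adjusted p = 0.197, edgeR) at day 6, and without day 6 replicate 2 the second passed (adjusted p from edgeR = 0.00475). Stk36, a kinase of the Hedgehog pathway, was listed at 0 throughout day 0. It was at least 2.48-fold higher at day 3 against the floor (adjusted p from edgeR = 0.396, 41 reads in all). Without day 3 replicate 3 this bound was 1.52-fold.

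Nek9, a mitotic kinase that activates Nek6 and Nek7, averaged 277 ± 58.8, 95.6 ± 52.3 and 138 ± 71.7 CPM on days 0, 3 and 6. Its log2 fold change was -1.53 ± 0.71 (adjusted p = 0.333, edgeR) at day 3 against day 0. Nek4 had 0, 11.7 and 166 CPM in day 0 libraries, 58.0, 0 and 23.4 CPM in day 3 libraries, and 0, 0 and 0 CPM in day 6 libraries, from 73 reads. Day 6 was at least 5.17-fold lower than day 0 (adjusted p from edgeR = 0.231), which rests on day 0 replicate 3, since without it the day 0 mean was 5.86 CPM, under the floor of 11.4 CPM. In the calcium group, Camkk2 activates calcium-dependent kinases and AMP-activated kinase. It had 76.8, 54.7 and 71.5 CPM at day 0 and was listed at 0 in the other 6 libraries. It was at least 7.03-fold lower at day 3 and at least 5.93-fold lower at day 6 (adjusted p from edgeR = 0.281 and 0.231), from 59 reads. Camk2d, a calcium/calmodulin-dependent kinase of muscle and heart, averaged 199.8 ± 60.2, 170.2 ± 112 and 108 ± 57.5 CPM on days 0, 3 and 6, and its groups overlapped. Of the other protein kinase C hosts, the one with most reads was Prkce, a form that needs no calcium, at 302 ± 51.0, 388 ± 24.3 and 477 ± 62.0 CPM. Its log2 fold change was 0.66 ± 0.38 (adjusted p = 0.353, edgeR) at day 6 against day 0.

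**Figure D4:**
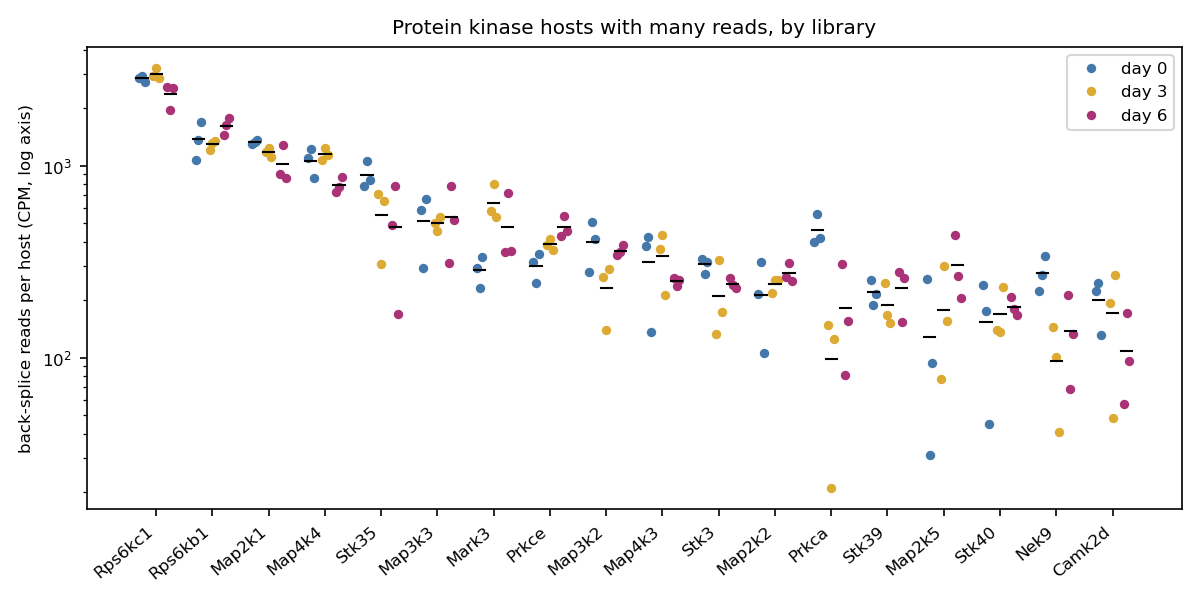
CPM (log axis) of kinase hosts with many reads in each library, by day, with the mean of each day as a bar. Prkca at day 3 lies below day 0 in all libraries, and Mark3 at days 3 and 6 lies above it.

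Counted circle by circle, 132 of the 593 kinase circRNAs passed the filter, with 86.0% of the kinase reads. None passed the edgeR threshold at day 3 or day 6 against day 0 or at day 6 against day 3, where 1.58%, 1.99% and 0.0613% of all 8153 tested circRNAs did. At an unadjusted p under 0.05 there were 5, 10 and 6 (3.79%, 7.58% and 4.55%, against 9.51%, 11.6% and 4.34% of all). Library values did not overlap between groups for 18, 17 and 14 of the 132 (13.6%, 12.9% and 10.6%, against 16.1%, 16.4% and 9.13% of all). DESeq2 called 1, 5 and 0, where it called 3.22%, 5.52% and 0.246% of all circRNAs. Its call at day 3 was the circle of exons 5 to 6 of Stk3, the Hippo kinase MST2, which had 68.7, 131 and 175 CPM in day 0 libraries, 0, 17.5 and 0 CPM in day 3 libraries, and 31.4, 60.9 and 118 CPM in day 6 libraries (DESeq2 adjusted p = 0.0130). Its calls at day 6 included a higher circle, Nek10 exons 2 to 7, and 3 lower ones, Akt1 exons 2 to 13, Prkca exons 9 to 13 and an intronic circle of Mapk14, with adjusted p of 0.0162 to 0.0449. In edgeR, leaving out 1 library let 1 circle pass in 2 cases: Prkce exons 3 to 6 at day 3 without day 3 replicate 2 (adjusted p = 0.0303) and Stk35 exon 3 at day 6 without day 6 replicate 2 (adjusted p = 0.0190). These circles are named because they were called, after their values were seen.

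The share of a host's reads in its leading circle was similar on the 3 days in Rps6kb1, Map2k1 and Rps6kc1 and varied more in some other hosts. Of the Rps6kb1 reads, the circle of exons 2 to 4 took 90.1% ± 5.25 at day 0, 90.8% ± 7.07 at day 3 and 95.5% ± 6.43 at day 6, as mean ± SD of 3 libraries. For Map2k1 the circle of exons 2 to 5 took 88.3%, 88.0% and 91.0% on days 0, 3 and 6. In Rps6kc1, a host of 36 circRNAs, the circle of exons 3 to 6 took 43.9%, 44.2% and 44.9%. The Rps6kc1 circle of exons 3 to 5 had 1149, 1296 and 1126 CPM in day 0 libraries, 886, 1374 and 841 CPM in day 3 libraries, and 903, 389 and 916 CPM in day 6 libraries. Its day 6 libraries lay below those of day 0, with a log2 fold change of -0.69 ± 0.29 (adjusted p = 0.340, edgeR). Those of the circle of exons 3 to 6 did too, with -0.35 ± 0.24 (adjusted p = 0.512, edgeR). Map4k4 had the most circRNAs, 38, and its leading circle of exons 23 to 29 held only 39.4%, 34.8% and 38.7% on days 0, 3 and 6. On the same days the leading share was 51.3% ± 24.2, 75.5% ± 2.68 and 58.7% ± 13.5 in Prkce, 43.1% ± 17.7, 23.4% ± 20.9 and 30.3% ± 4.66 in Map3k2 and 53.4% ± 5.88, 72.7% ± 6.32 and 63.0% ± 19.1 in Map4k3 (mean ± SD of 3 libraries). No difference in share was tested. Camk2g spread 301 reads over 23 circRNAs, none of which passed the filter, and Map2k5, the activator of Mapk7, spread 523 over 21.

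**Figure D5:**
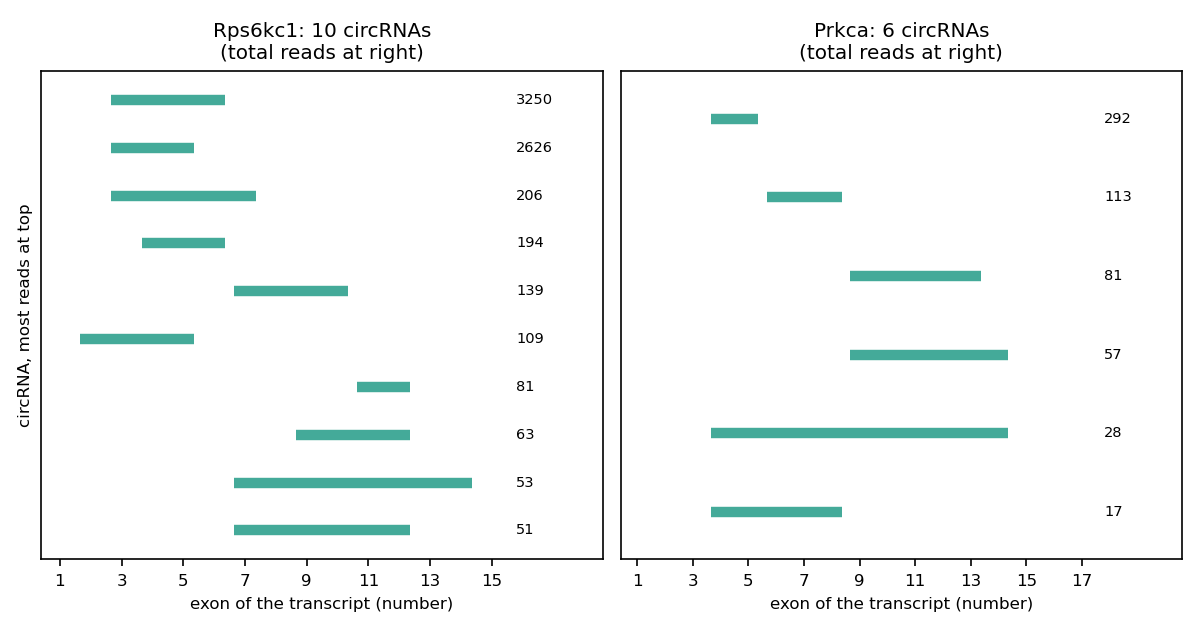
Exons joined by the tested exonic circRNAs of Rps6kc1 and Prkca, drawn by exon number along the named transcript. Each line is 1 circRNA from its first to its last exon; several circles of a host share a first exon.

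Tested kinase circles often shared a splice site with another circle of their host, and the same count was not made for other hosts. In the 28 hosts with more than 1 tested circRNA, 79 of 109 tested circRNAs shared a start or an end with another of the same host. All 11 of Rps6kc1 did so, and the 3 of Mark3 and the 3 of Map2k1 had 1 common start each. Their reads therefore differ only in the opposite side of the junction.

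Some structural features of the kinase circles differed from those of other hosts and others were near them. Of the 119 tested kinase circRNAs placed on exons, 36.1% began at exon 2, against 31.5% of those of all other hosts. Over all listed circRNAs placed on exons the order was reversed, at 22.3% against 25.7%. Of the tested kinase circRNAs 10.1% held the start codon, against 14.3%. Their median spliced length was 515 nt against 536 nt, and the median intron upstream of the first exon was 11440.0 bp against 8724 bp. Coding sequence alone made up 87.4% against 84.5%. A circBase identifier was given for 21 of the 132 tested kinase circRNAs (15.9%), against 9.55%. These are descriptions without a test, over circles that share hosts. Of all 593, 357 were listed in a single library (60.2%, against 61.1% of other hosts' circRNAs), and the 23 listed in all 9 held 61.3% of the reads.

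Of the 593 kinase circRNAs 71 were typed as intronic (11.97%), against 10.2% of the circRNAs of all other hosts. By reads, intronic circles held 8.38% in kinase hosts against 3.61% in all other hosts, and among tested circRNAs 7.84% against 2.52%. These shares weigh a circle by its reads and were not tested. Of these 71, 57 had exactly 1 end at an annotated exon edge of the host.

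Genes that work beside the kinases but are none of them gave a few differences. Of 87 partners listed for the RAS, stress, PI3K, Hippo, cAMP and calcium pathways and their phosphatases, 76 were hosts and 67 were tested. At day 3 against day 0, 1 of 67 rose and 0 fell in edgeR's test, against 3.04% and 0.923% of all hosts. At day 6 against day 0, 3 rose and 0 fell, against 3.86% and 1.80%. At day 6 against day 3 none passed, where 3 of all 4115 hosts did. Their median log2 fold change was 0.12 at day 3 and 0.26 at day 6 against day 0, against -0.02 and -0.13 over all hosts.

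The host that rose on both days was Amotl1 of the Hippo list, an angiomotin that binds the YAP coactivator. It had 2354, 1316 and 2133 CPM in day 0 libraries, 3625, 3062 and 3620.3 CPM in day 3 libraries, and 3167, 2946 and 3006 CPM in day 6 libraries. The later days stood above day 0 without overlap, with log2 differences of 0.83 ± 0.19 (adjusted p = 0.00561, edgeR) at day 3 and 0.65 ± 0.19 (adjusted p = 0.0365, edgeR) at day 6. Pik3r1, the regulatory subunit of the kinase upstream of Akt, had 649, 529 and 435 CPM at day 6 against 115, 269 and 226 CPM at day 0, a log2 difference of 1.40 ± 0.40 (adjusted p = 0.0269, edgeR). Akap6, an anchor of protein kinase A in muscle, had 466, 252 and 337 CPM at day 6 against 53.2, 0 and 22.6 CPM at day 0, a log2 difference of 3.74 ± 0.90 (adjusted p = 0.00615, edgeR). By list, the counts that passed at day 6 against day 0 were 1 of 15 for PI3K and mTOR, 1 of 11 for Hippo and 1 of 15 for cAMP and calcium. They were 0 of 14 for RAS and RAF, 0 of 7 for the stress kinase partners and 0 of 5 for the phosphatases. The median log2 fold changes at day 6 were 0.14, 0.58 and 0.40 for the first group of lists, and -0.17, 0.43 and -0.88 for the others, in the same order.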

How the data were processed

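The authors deposited 1 table of whole-number counts of back-splice reads per circRNA in 9 libraries of C2C12 cells, with locus, type, host gene and, for some circRNAs, a circBase identifier. BWA and the mouse build GRCm38.p4 (mm10) are named per the submitters' processing notes, while which caller, filters and versions were used is not given in the sources used here. Counts above 0 start at 2, so a circRNA with 1 read in a library is listed there at 0. Of circRNA starts and ends, 87.7% lay at exon edges of GENCODE M21 on GRCm38, from which symbols and exon numbers were taken. A symbol was found for 6861 of the 6943 hosts.

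Counts were tested with the quasi-likelihood method of edgeR 4.0.16 in R 4.3.3, using TMM factors, a prior count of 0.125 and filterByExpr (minimum count 5, minimum total 15). It was run over all 9 libraries on 4115 hosts, with counts summed over a host's circRNAs, and on 8153 circRNAs, with Benjamini-Hochberg adjustment over the whole table and a threshold of 0.05. Standard errors are approximate, the fold change divided by the root of F. CPM use TMM-adjusted totals. Levels are compared within a host, and CPM of different hosts are not corrected for length, since a junction is counted once. The procedure was also run on simulated counts with known changes, and no statement here rests on that run. The zeros of the simulated counts were not compared with those of these data. Whether the libraries of a day stem from different cultures is not labelled, so the p-values reflect the spread among these samples alone, possibly a technical one. Reads carry no molecular identifiers, so floors (3 reads per library) cover counting error only, and depth ran from 208787 to 443955 reads per library.

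Hosts were named by rule: those that passed, the host with most reads per prefix, the 5 smallest p-values per comparison that did not pass, the 5 hosts with most circRNAs, and the 10 highest circRNAs. Some hosts and circRNAs that the rule names are not reported here. The members, lists and rule were chosen with earlier results of these data known. Replicate numbers are not said to pair libraries and are used as names. Alternatives were DESeq2 1.42.0, other normalisation factors and filters, a replicate block, fits of 2 groups and leaving out each library.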

Additional observations from a re-analysis of the deposited data

How the results depend on the processing

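Calls of kinase hosts were few and moved with the settings. At day 3 against day 0 (1 call) DESeq2 gave 3 (Mark3 higher, Prkca and Rps6ka5 lower), upper-quartile factors gave 2 (Mark3 and Prkca) and a fit of these 2 groups alone gave 0. Leaving out 1 library gave 0 to 2. At day 6 against day 0 (0 calls) DESeq2 gave 2 (Akt1, lower, among them), upper-quartile factors gave 1, and leaving out 1 library gave 0 to 3. For circRNAs, DESeq2 gave 1 at day 3 and 5 at day 6 (3.22% and 5.52% of all circRNAs), each leave-one-out range was 0 to 1, and day 6 against day 3 gave 0 under every alternative run at either level. Same-numbered libraries did not deviate together (correlations of -0.037 to 0.005), and no library correlated best with its own number. A replicate block gave 2 host calls at day 3 (Prkca and Rps6ka5) and 2 at day 6 (Stk35 among them).

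DESeq2's size factors gave a median over all hosts of -0.133 at day 3 and -0.188 at day 6, against -0.023 and -0.130 with TMM, and its calls over all hosts were 169 higher and 117 lower at day 3 and 243 and 207 at day 6, against 125 and 38, and 159 and 74, with TMM. Library size alone gave 121 higher and 92 lower at day 6. Small log2 fold changes to day 0 turned sign: Map3k3 at day 3 with upper-quartile factors (0.021) and at day 6 with DESeq2 (-0.003) and library size alone (-0.060), Map4k4 at day 3 (-0.009 and -0.031 with these), Rps6kc1 at day 3 (-0.037 and -0.058) and its circle of exons 3 to 6 (-0.116 and -0.053). Leaving out 1 library, ranges that crossed 0 at day 3 were -0.712 to 0.216 for Camk2d, -0.34 to 0.198 for Map3k3, -0.004 to 0.212 for Map4k4, -0.255 to 0.046 for Map4k4 exons 23 to 29, -0.234 to 0.309 for Map3k3 exons 2 to 6 and -0.304 to 0.138 for Rps6kb1 exons 2 to 4. At day 6 they were -0.304 to 0.333 for Map3k3 and -0.14 to 0.469 for its circle of exons 2 to 6. None of these passed in either setting. With filtered circRNAs alone, the leading share of Camk2d became 73.57% and of Nek9 61.36%, since fewer circRNAs were summed. Without Prkca and Stk35, a choice made after seeing the data, the summed kinase reads had log2 ratios to day 0 of -0.161 at day 3 and -0.193 at day 6. Of the other alternatives for single fold changes, 633 kept direction and side of the threshold, 11 passed only in the alternative and 4 only in the reported fit. The cause of the other moves was not tested. Depth limits the smaller hosts: 29 of 97 were not tested, and 5 hosts at day 3 and 6 at day 6 had 1 of the compared days at 0.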
